A study of Mus musculus with 12 samples.

Results

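The KPC tumors of Sirpα-/- and WT mice, taken without irradiation (IR) or after a single dose of 8 Gy, made up 4 of the 12 samples of the study. They were chosen by their labels alone: 1 sample from Sirpα-/- mice and 1 from WT mice without IR, and 1 from each genotype after 8 Gy. KPC is a mouse pancreatic ductal adenocarcinoma line, and the other 8 samples came from MC38 (colorectal adenocarcinoma) and Pan02 (pancreatic ductal adenocarcinoma) tumors. All hosts were C57BL6 mice bearing a tumor in the right flank that had grown past 200 mm3 by the time of IR. Their age is given with the samples as 6 to 8 weeks, but the study's methods give an older range. The knockout was in the host in every cell type and not in the engrafted cancer cells, so a whole KPC tumor in a Sirpα-/- mouse still held cancer cells with an intact Sirpa gene. The study's methods describe 2 tumors taken at 12 h and 2 at 18 h after 8 Gy, and name no separate times for non-irradiated tumors. Each sample was 1 pool of RNA from 4 mice, measured on the nCounter Mouse Immunology Panel, which counts labeled probes on RNA without amplification. A condition therefore had 1 sample, and a difference between 2 samples has no replicate check. The transcript of Sirpa itself was not analysed here, so the labels were not checked against the targeted gene.

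SIRPα is an inhibitory receptor of macrophages, monocytes, granulocytes and dendritic cells. Its extracellular domain binds CD47, a surface protein of nearly all cells that is known as a "don't eat me" signal, and its cytoplasmic tail recruits the phosphatases SHP-1 and SHP-2, which dampen phagocytosis and inflammatory signaling. In a tumor the myeloid cells that carry SIRPα are replenished from blood monocytes, which are drawn in by chemokines such as CCL2, CCL7, CCL8 and CCL12 through the receptors CCR2 and others. The comparison asks which immune transcripts differed between Sirpα-/- and WT hosts, and whether they did so both before and after IR.

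The samples differed widely in depth. The deposited values are normalized counts, and 1 net count (a counted probe after the background was deducted) was worth 3.79 and 6.48 normalized counts in the non-irradiated WT and Sirpα-/- samples but 0.504 and 0.615 in the irradiated ones. Net counts over the panel came to 21576 and 12292 without IR and to 240077 and 178468 after 8 Gy, against 79166 to 403460 in the 8 MC38 and Pan02 samples. Among the 561 genes, 176 in the non-irradiated WT sample and 267 in the non-irradiated Sirpα-/- sample stood at the lowest value of that sample. A gene was therefore considered in a pair only where at least 1 of its 2 samples reached 100 normalized counts, which left 131 genes without IR and 197 after 8 Gy, with 119 in both. A value of 100 stood for 26.4 and 15.4 net counts in the non-irradiated WT and Sirpα-/- samples. Over the 131 genes, the upper bound of the 95% counting interval of a fold lay a median of 2.53 times above its lower bound without IR and 1.31 times after 8 Gy. Klrd1, Ikbkb and Fcgrt were just below the limit, each with a larger value of 97.3, and Ifit2 (102), Ptprc (104) and Cd163 (106) just above it.

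The chemokines Ccl5 and Ccl12 were the only genes of the 131 that were at least 2-fold lower in Sirpα-/- hosts in both KPC pairs, which is 1.53% of the genes, and no gene was 2-fold higher in both (0%). Both genes passed the limit of 100 without IR through the WT sample only, which favors a lower Sirpα-/- value. In all, 21 of the 131 genes passed through the WT sample only and 7 through the Sirpα-/- sample only. Where both values of each pair had to reach 100, 0 genes were 2-fold lower in both pairs. Ratios were taken as log2 of Sirpα-/- over WT after adding 10 to each value. Ccl5, which draws T cells, monocytes and eosinophils, measured 133 normalized counts in the WT and 32.4 in the Sirpα-/- sample without IR. After 8 Gy it measured 239 in WT and 60.3 in Sirpα-/- hosts. Both Sirpα-/- values lay below both WT values, and the level was higher after 8 Gy in each genotype. The WT sample was 4.09 times the Sirpα-/- sample without IR, with a 95% counting interval from 1.60 to 13.4 that rests on 35 against 5 net counts. It was 3.96 times the Sirpα-/- sample after 8 Gy (3.18 to 4.98). These intervals cover counting error only, not the difference between mice.

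Ccl12, a mouse monocyte chemoattractant that signals through CCR2, measured 110 in WT and 25.9 in Sirpα-/- hosts without IR. After 8 Gy it measured 264 in WT and 111 in Sirpα-/- hosts. The irradiated Sirpα-/- tumor thus stood at the level of the non-irradiated WT tumor. The ratio of WT to Sirpα-/- was 4.24 without IR (1.49 to 16.6, from 29 against 4 net counts) and 2.38 after 8 Gy (2.01 to 2.84).

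**Figure D1:**
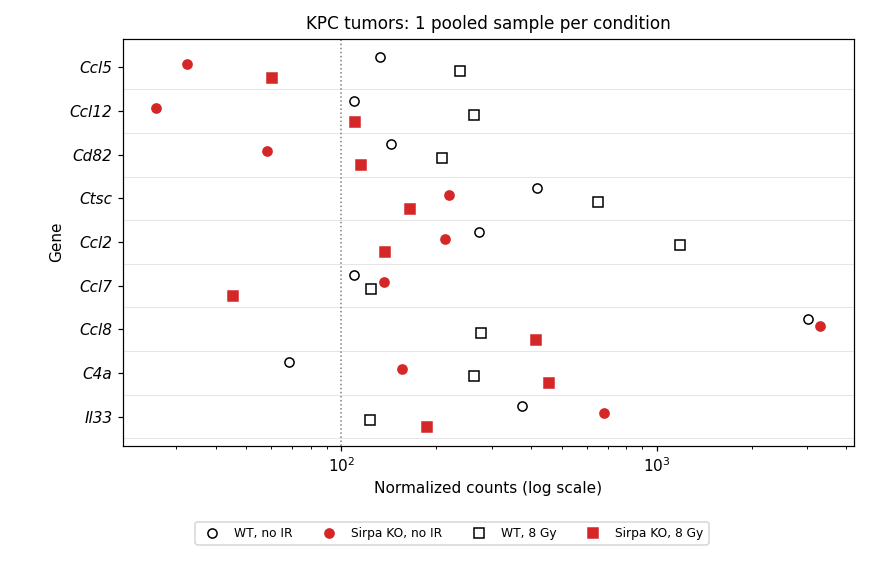
Normalized counts (log scale) of 9 genes in the 4 KPC samples, 1 pooled sample per condition: open symbols are WT hosts, red symbols Sirpα-/- hosts, circles no IR and squares 8 Gy, and the dotted line marks 100. For Ccl5, Cd82 and Ctsc both red symbols lie left of both open ones, for Ccl2 the irradiated WT sample stands apart at 1185, and C4a and Il33 are further right in red within each pair.

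Ccl12 has its gene in a cluster of CC chemokine genes on mouse chromosome 11 (GRCm38.p6), where Ccl2, Ccl7, Ccl11, Ccl12 and Ccl8 follow each other within 81.2 kb. Its neighbor Ccl8, which in the mouse acts mainly on CCR8, did not share its pattern. Ccl8 measured 3026 in WT and 3307 in Sirpα-/- hosts without IR and 277 and 413 after 8 Gy, so it was lower after 8 Gy in both genotypes and not lower in Sirpα-/- hosts in either pair. Their start-site regions are shown because these neighbors differed in the same 4 samples. Each runs from 250 bases before to 50 bases after the start of transcription on the plus strand, taken from RefSeq, at chr11:82101595-82101894 for Ccl12 and chr11:82114935-82115234 for Ccl8. Capitals mark the 3 runs of at least 8 identical bases that the 2 regions share at positions no more than 20 bases apart.
Ccl12: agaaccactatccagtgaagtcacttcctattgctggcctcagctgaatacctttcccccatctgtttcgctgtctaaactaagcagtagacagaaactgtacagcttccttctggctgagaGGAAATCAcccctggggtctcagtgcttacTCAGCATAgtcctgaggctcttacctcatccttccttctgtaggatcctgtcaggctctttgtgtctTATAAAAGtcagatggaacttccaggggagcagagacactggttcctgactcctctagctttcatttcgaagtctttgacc
Ccl8: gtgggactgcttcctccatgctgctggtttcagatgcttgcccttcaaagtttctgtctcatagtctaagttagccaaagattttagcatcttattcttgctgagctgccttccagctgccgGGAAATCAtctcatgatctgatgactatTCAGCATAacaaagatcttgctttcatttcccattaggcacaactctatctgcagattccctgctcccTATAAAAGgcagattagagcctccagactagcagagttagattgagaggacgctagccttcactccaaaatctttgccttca

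The run TATAAAAG, which holds the TATA box, was found on the forward strand of 1.18% of the 32851 regions of this length in the RefSeq table, GGAAATCA in 0.618% and TCAGCATA in 0.244%. Neither region held the letters TGANTCA, an AP-1 site present in 7.81% of the regions, on either strand.

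Ccl2, the principal ligand of CCR2, differed between the genotypes mainly after 8 Gy. It measured 273 in WT and 214 in Sirpα-/- hosts without IR, a ratio of 1.28 whose counting interval (0.834 to 1.99) held 1. After 8 Gy it measured 1185 in WT and 137 in Sirpα-/- hosts, a ratio of 8.64 (7.53 to 9.97). The irradiated WT sample was the highest of the 4 and the irradiated Sirpα-/- sample the lowest. Ccl7, another CCR2 ligand, measured 110 and 136 without IR and 124 and 45.5 after 8 Gy in WT and Sirpα-/- hosts. The receptor Ccr2 measured 87.2 and 77.8 without IR, below the limit, and 117 and 42.5 after 8 Gy. Csf1, the growth factor of macrophages, measured 250 and 182 without IR and 332 and 247 after 8 Gy. Ccl2, Ccl7 and Ccr2 were thus at their lowest in the irradiated Sirpα-/- sample, and Csf1 in the non-irradiated one.

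Over the list of monocyte chemokines and receptors (8 genes, all measured), 1 of the 5 considered without IR was 2-fold lower in Sirpα-/- hosts (Ccl12), against 3.05% of all 131 genes. After 8 Gy 4 of the 7 considered were 2-fold lower (Ccl2, Ccl7, Ccl12 and Ccr2), against 7.61% of all 197 genes. No member was 2-fold higher in either pair (1.53% and 5.08% of all genes). The median log2 ratio of the list was -0.34 without IR and -1.18 after 8 Gy, where the medians over all genes considered were -0.11 and -0.27. Monocyte markers (Ccr2, Cx3cr1 and Itgam) moved with these genes: their summed level was 137 and 90.8 in WT and Sirpα-/- hosts without IR and 339 and 170 after 8 Gy, with 2 of the 3 at the lowest value in the non-irradiated Sirpα-/- sample, and their part in the result was not tested. Ccr2 is in both lists and made up 87.2 and 77.8 of the non-irradiated sums and 117 and 42.5 of the irradiated ones. In a whole tumor fewer cells of a type and less RNA per cell cannot be told apart.

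Ctsc encodes cathepsin C, a lysosomal protease that activates the granule serine proteases of neutrophils, mast cells and cytotoxic lymphocytes. It measured 417 in WT and 220 in Sirpα-/- hosts without IR, and 652 in WT and 165 in Sirpα-/- hosts after 8 Gy. Both Sirpα-/- values lay below both WT values. The ratio of WT to Sirpα-/- was 1.89 (1.28 to 2.87) without IR and 3.95 (3.47 to 4.53) after 8 Gy.

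The 2 pairs were tested together in limma, with irradiation as a term, on log2 values of the 131 genes. Of these, 4 fell in Sirpα-/- hosts at an adjusted p below 0.05 (3.05%) and 0 rose. Ccl2 had a log2 difference of -1.68 ± 0.30 (SE, 2 against 2; limma adjusted p = 2.15e-05), Ctsc of -1.41 ± 0.30 (limma adjusted p = 0.00057), Ccl5 of -1.79 ± 0.44 (limma adjusted p = 0.00351) and Ccl12 of -1.46 ± 0.42 (limma adjusted p = 0.0209). Each was lower in 2 of 2 pairs. At an unadjusted p below 0.05, limma gave 16 lower and 2 higher genes. The next genes were the receptor chain Ifngr1 (-0.97 ± 0.31, limma adjusted p = 0.052) and the complement gene C4a (0.93 ± 0.32, limma adjusted p = 0.093). With 1 residual degree of freedom a gene, limma took the spread wholly from the trend over genes, so the mean difference of Ccl2 was called although its 2 pairs (-0.34 and -3.02) were far apart. edgeR's quasi-likelihood test on the recovered counts called 0 of the 131 genes after adjustment and 9 at an unadjusted p below 0.05, and scaling by the median ratio or a fit of all 12 samples also left 0 limma calls.

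**Figure D2:**
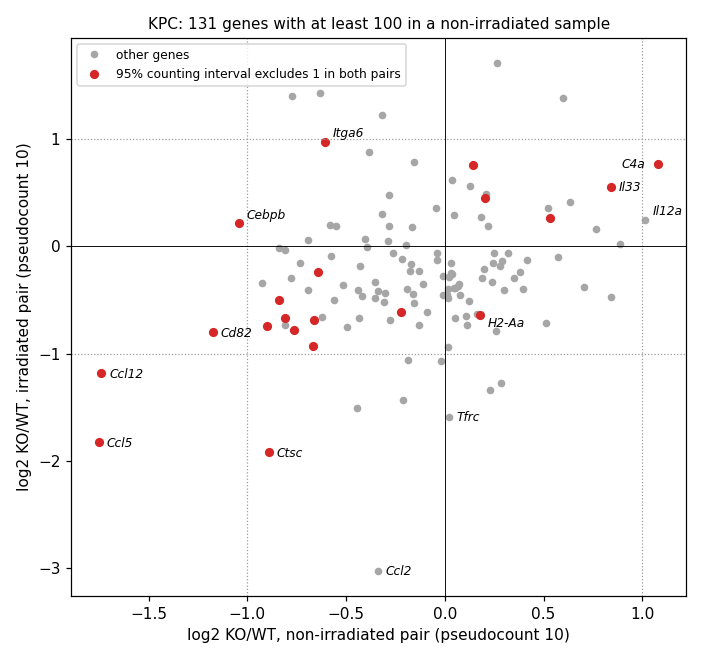
Each point is 1 of the 131 genes, with the log2 ratio of Sirpα-/- over WT (10 added to each value) in the non-irradiated pair on the x axis and in the irradiated pair on the y axis. Red points have a 95% counting interval that excludes a ratio of 1 in both pairs, dotted lines mark 2-fold, and only Ccl5 and Ccl12 lie below both the vertical and the horizontal line at -1.

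The pairs agreed only in part. Of the 131 genes, 55 had a ratio below 0 in both pairs, 18 above 0 in both, 40 above 0 without IR and below 0 after 8 Gy, and 18 the reverse. The split of 55 below and 18 above 0 in both pairs became 42 and 28 when the samples were scaled by the reference genes and 36 and 37 when they were scaled by the median ratio. Whatever their level after 8 Gy, 5 of the 131 genes were 2-fold higher there (3.82%) and 11 were 2-fold lower (8.4%). Of these, Ccl6, Cd163, Il17a and Serping1 among the higher and Ncam1 among the lower were below 100 in both irradiated samples. None was 2-fold in opposite directions in the 2 pairs (0%). Across these genes, which are not independent replicates and share the 4 samples, Pearson's r between the 2 pairs was 0.25 and Spearman's rho 0.22. The median log2 ratio of the 131 genes was -0.11 without IR and -0.30 after 8 Gy, so the irradiated Sirpα-/- sample was lower as a whole. Scaling each sample by the median ratio moved these medians to 0.00 and 0.01, and the 14 reference genes as a scale moved them to -0.06 and -0.12.

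A broader set was lower in both pairs beyond counting error alone. In either direction, the interval excluded a ratio of 1 for 26 of the 131 genes without IR and for 104 after 8 Gy. Most genes thus met the condition after 8 Gy, and an overlap alone does not show that the pairs are related. For 12 of the 131 genes (9.16%) the 95% counting intervals lay below a ratio of 1 in both pairs, and 8 of them did so under both other scalings: Ccl5, Ccl12, Ctsc, Cd82, Ifnar1, Jak1, Psmd7 and Tgfbi. Of these, Ccl5, Ccl12 and Cd82 reached 100 without IR in the WT sample only, so the limit itself favors a lower Sirpα-/- value. Across the 131 genes, 21 passed through the WT sample only and 7 through the Sirpα-/- sample only. Cd82, a tetraspanin that restrains cell migration, measured 144 and 58.4 in WT and Sirpα-/- hosts without IR and 209 and 116 after 8 Gy. Cd82 was 2-fold lower without IR only. Ifnar1, a chain of the type I interferon receptor, measured 300 and 156 without IR and 212 and 122 after 8 Gy. Jak1, the kinase that serves this receptor and that of interferon gamma, measured 326 and 188 without IR and 540 and 310 after 8 Gy. For Ifnar1 and Jak1 the log2 ratios of the 2 pairs were close to each other, at -0.90 and -0.75 for Ifnar1 and at -0.76 and -0.78 for Jak1, and the limma adjusted p was 0.143 for each. Tgfbi, an extracellular matrix protein induced by TGF-β, measured 470 and 292 without IR and 578 and 300 after 8 Gy, again lower in Sirpα-/- hosts in each pair. Psmd7, a subunit of the proteasome lid, measured 406 and 253 without IR and 757 and 466 after 8 Gy. The other 4, Casp8, H2-Eb1, Xbp1 and the reference gene Ppia, did not hold under at least 1 of those scalings.

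C4a, C3 and Il33 were among the few genes higher in Sirpα-/- hosts in both pairs. For 5 of the 131 genes (3.82%) the counting intervals lay above 1 in both pairs: C4a, Il33, C3, Fn1 and the reference gene Gapdh, and all 5 did so under both other scalings. The complement gene C4a measured 68.3 in WT and 156 in Sirpα-/- hosts without IR and 263 and 456 after 8 Gy. The ratio of Sirpα-/- to WT was 2.28 (1.19 to 4.46) without IR and 1.73 (1.55 to 1.94) after 8 Gy, and the level was higher after 8 Gy in each genotype. C4a has a near-identical copy, C4b, and whether the probe tells the copies apart is unknown here. C3, on which all complement pathways converge, measured 262 and 383 without IR and 606 and 730 after 8 Gy. Il33, an alarmin of stromal and epithelial nuclei, measured 375 and 681 without IR and 123 and 186 after 8 Gy. Il33 was thus higher in Sirpα-/- hosts in each pair and lower after 8 Gy in each genotype. Fn1, the matrix protein fibronectin, measured 1972 and 2270 without IR and 3116 and 4258 after 8 Gy.

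Over the complement list 9 of 26 measured genes were considered in each pair. Only C4a was 2-fold higher, without IR, and no member was 2-fold lower in either pair, where 1.53% and 3.05% of all genes were higher and lower without IR and 5.08% and 7.61% after 8 Gy. The median log2 ratio of the list was 0.21 without IR and 0.18 after 8 Gy, on the other side of 0 from the medians of all genes in those pairs, and it stayed above 0 under both other scalings. C1qa and C1qb, which tumor macrophages make, were not 2-fold higher in either pair. C1qa measured 228 and 149 without IR and 898 and 846 after 8 Gy, and C1qb measured 436 and 460 without IR and 1162 and 845 after 8 Gy. Fibroblast markers (Fn1, Thy1 and Pdgfrb) had a summed level of 1995 and 2295 in WT and Sirpα-/- hosts without IR and 3252 and 4351 after 8 Gy, nearly all of it Fn1, with 1 of the 3 at the lowest value in each non-irradiated sample, and their part in the result was not tested.

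Of the macrophage list (8 measured genes), 4 were considered without IR and 5 after 8 Gy, and 0 of these were at 2-fold in either pair, where 1.53% and 3.05% of all genes were higher and lower without IR and 5.08% and 7.61% after 8 Gy. With so few members this count is near what all genes gave. Csf1r, the receptor for CSF1, measured 133 and 71.3 in WT and Sirpα-/- hosts without IR and 192 and 112 after 8 Gy, a log2 ratio of -0.81 and -0.73. Emr1, the gene of the F4/80 antigen (current symbol Adgre1), measured 60.7 and 77.8 without IR and 224 and 141 after 8 Gy. Cd163, a scavenger receptor, measured 106 and 64.8 without IR and 5.54 and 32.0 after 8 Gy, a log2 ratio of 1.43 in a pair where it was below the limit of 100. The summed level of 6 macrophage markers was 959 and 895 without IR and 2627 and 2133 after 8 Gy.

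Few genes of the receptor pathway itself could be read without IR. Of 9 measured genes of SIRP and related inhibitory and phagocytic receptors, 3 were considered without IR and 6 after 8 Gy, with 0 at 2-fold without IR (1.53% of all genes higher and 3.05% lower) and 1 lower after 8 Gy (7.61% of all genes). That gene was Fcgr1, the high-affinity Fc receptor for IgG, which measured 75.9 and 19.5 in WT and Sirpα-/- hosts without IR (20 against 3 net counts) and 255 and 118 after 8 Gy. Ptpn6, which encodes SHP-1, measured 56.9 and 25.9 without IR and 162 and 110 after 8 Gy. The integrin chain Itgb2 measured 137 and 110 without IR and 100 and 144 after 8 Gy, the opposite order in the 2 pairs.

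TGF-β genes gave a mixed picture. Of 16 measured genes of TGF-β signaling and matrix, 11 were considered without IR and 13 after 8 Gy, and the median log2 ratio was 0.20 without IR and -0.18 after 8 Gy. Tgfb1 measured 220 and 162 in WT and Sirpα-/- hosts without IR and 272 and 195 after 8 Gy, a log2 ratio of -0.42 and -0.46 (limma adjusted p = 0.567). Tgfb3 measured 56.9 and 13.0 without IR, below the limit, and 115 and 73.2 after 8 Gy. Tgfb2 was at 7.58 or less in all 4 samples. The only considered gene of this list at 2-fold was Plaur, the urokinase receptor, higher after 8 Gy as 5.08% of all genes were, at 326 and 259 without IR and at 175 and 423 after 8 Gy.

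After 8 Gy alone, 10 of 197 genes were 2-fold higher (5.08%) and 15 were 2-fold lower (7.61%) in Sirpα-/- hosts. Of the 10 higher genes, 9 were too low without IR to be considered, so their genotype difference cannot be followed back to the non-irradiated pair. Ifna1, a type I interferon, measured 9.07 in WT and 303 in Sirpα-/- hosts after 8 Gy and stood at the lowest value in each non-irradiated sample. Mx1, an antiviral GTPase induced by such interferons, measured 133 and 539 after 8 Gy and 26.6 and 25.9 without IR, the latter from 7 and 4 net counts. Both non-irradiated samples were therefore low and did not differ beyond counting error for Mx1. Of the 12 genes of the interferon-stimulated list considered after 8 Gy, 1 was 2-fold higher (Mx1) and 1 was 2-fold lower. Their median log2 ratio of -0.31 was near that of all 197 genes (-0.27) and came to -0.01 under the median ratio. The gene lower was Ifih1, an RNA sensor, at 222 and 72.0 after 8 Gy.

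S100a8 and S100a9, which form calprotectin in neutrophils and monocytes, were also higher after 8 Gy. S100a9 measured 258 in WT and 695 in Sirpα-/- hosts after 8 Gy and 3.79 and 19.5 (1 and 3 net counts) without IR. S100a8 measured 200 and 529 after 8 Gy and 19.0 and 38.9 (5 and 6 net counts) without IR. The ratio of S100a8 without IR, 2.05, had a counting interval from 0.522 to 8.50, so a genotype difference was not detectable at this depth. Of the 7 neutrophil markers, these were the only members to reach 100, and 4 and 5 of the 7 were at the lowest value in the non-irradiated WT and Sirpα-/- samples. Ptgs2, the inducible cyclooxygenase, measured 198 and 754 after 8 Gy and 26.6 and 6.48 (7 and 1 net counts) without IR.

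**Figure D3:**
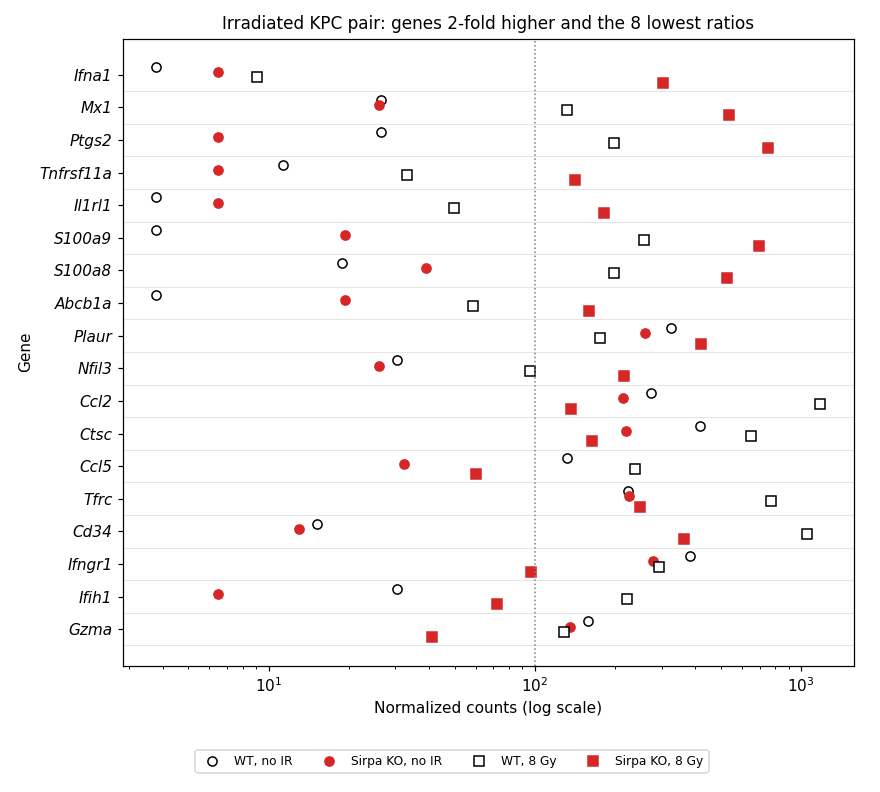
Normalized counts (log scale) in all 4 KPC samples of the 10 genes 2-fold higher in the irradiated Sirpα-/- sample and the 8 with the lowest ratios: open symbols are WT hosts, red symbols Sirpα-/- hosts, circles no IR, squares 8 Gy, and the dotted line marks 100. For the 10 upper genes, other than Plaur, both circles lie left of 100, and for Tfrc the circles lie close together while the squares are apart.

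Of the 15 genes lower after 8 Gy, 10 were considered without IR, and only Ccl5 and Ccl12 were 2-fold lower there. Tfrc, the transferrin receptor, was nearly equal without IR (224 in WT and 227 in Sirpα-/- hosts) and differed after 8 Gy (771 and 250). The WT sample alone was high. Ifngr1 measured 383 and 279 without IR and 292 and 96.6 after 8 Gy, so here the irradiated Sirpα-/- sample alone was low. Gzma, a granzyme of cytotoxic lymphocytes, was also lowest in that sample, with 159 and 136 without IR and 128 and 41.2 after 8 Gy. Nfkb2 measured 451 and 396 without IR and 599 and 283 after 8 Gy. Whether these differences between the pairs exceed the spread between mice was not tested, since each pair is 1 sample against 1. The stem and endothelial antigen Cd34 measured 1056 and 365 after 8 Gy but 15.2 and 13.0 (4 and 2 net counts) without IR.

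Without IR alone, 2 genes were 2-fold higher and 4 were 2-fold lower in Sirpα-/- hosts. Beside Ccl5, Ccl12, Cd82 and C4a these were Cebpb and Il12a. The 4 lower genes reached 100 without IR in the WT sample only, and C4a in the Sirpα-/- sample only, so the limit itself favors these directions. Where both values had to reach 100, 1 gene was 2-fold higher and 0 were 2-fold lower. Cebpb, a transcription factor of myeloid cells, measured 118 and 51.9 without IR and 422 and 492 after 8 Gy. Il12a, a chain of the cytokine IL-12, measured 114 and 240 without IR but only 2.02 and 4.31 after 8 Gy. Its level after 8 Gy rests on 4 and 7 net counts. Il17a behaved alike, at 125 and 195 without IR and at 2.52 and 22.8 after 8 Gy, so transcripts at 100 or more in the shallow pair were near the lowest values in the deep one. Of 29 measured genes that the study names for Sirpα-/- or WT tumors, 6 were considered without IR, with 1 higher (Il12a) and 1 lower (Ccl12), beside 1.53% and 3.05% of all genes. After 8 Gy 9 were considered, with 2 higher (Ifna1 and Mx1) and 2 lower (Ccl2 and Ccl12), beside 5.08% and 7.61% of all genes. The other members were below 100 in both irradiated samples, so these counts leave them out. Among them the log2 ratio after 8 Gy was 2.19 for Ifnb1, 2.11 for Ccl19 and 1.68 for Il12b. Ifng, Tnfsf18, Ccl4 and Cxcl3 were also more than 2-fold higher. Cd40 (-0.188) and Tgfb2 (-0.152) went the other way, short of 2-fold. Each of these ratios compares 1 sample with 1. The list of 29 was chosen on samples of this study and is not independent evidence of a direction.

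T and B cell genes were too low to compare. None of 11 T cell and 6 B cell markers reached 100 in any of the 4 samples, and their summed levels ranged from 140 to 308 for T cell and from 37.9 to 122 for B cell markers. Epithelial and pancreatic ductal markers, of which Muc1 and Cd24a were measured, summed to 87.2 and 77.8 in WT and Sirpα-/- hosts without IR and to 187 and 316 after 8 Gy, and only 1 of the 2 reached 100 after 8 Gy.

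The genotype difference in KPC was set against the mean of those in MC38 and Pan02 in 1 limma fit of all 12 samples. None of the 131 genes passed (0%; limma, smallest adjusted p = 0.998; 3 at an unadjusted p below 0.05), so no gene is shown to differ in KPC from the other tumor models. Ctsc was lower in Sirpα-/- hosts in each of the 6 pairs, with log2 ratios of -1.45 and -1.71 in MC38 and Pan02 without IR and of -0.99 and -1.62 after 8 Gy. Ccl12 was lower in each of the 6 pairs as well, with -1.59 and -0.73 without IR and -0.33 and -1.45 after 8 Gy in MC38 and Pan02. Ccl5 was lower without IR in MC38 (-1.02) and Pan02 (-0.75), as in KPC. After 8 Gy Ccl5 was higher in Sirpα-/- hosts in MC38 (769 in WT and 1292 in Sirpα-/-) and Pan02 (182 and 250), where KPC was lower. The difference of KPC from their mean for Ccl5 was -1.64 ± 0.51 on the log2 scale (limma adjusted p = 0.998). For Ccl2 the difference was -1.19 ± 0.63 (limma adjusted p = 0.998). With either non-irradiated KPC sample left out, the irradiated pair alone gives the KPC value (-3.02), while MC38 and Pan02 are still averaged over both of their pairs. Such a fit sets a difference after 8 Gy against one averaged over irradiation, so it cannot tell KPC from the other tumor models.

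**Figure D4:**
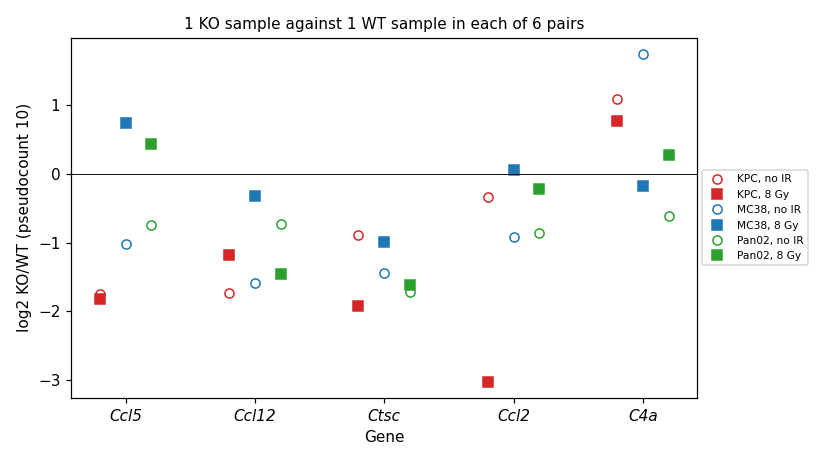
Log2 ratio of Sirpα-/- over WT (10 added to each value) for 5 genes in 6 pairs, each 1 sample against 1: red KPC, blue MC38, green Pan02, open circles no IR and filled squares 8 Gy. Ctsc and Ccl12 lie below 0 in all pairs, Ccl5 lies below 0 in KPC in both pairs and above 0 in MC38 and Pan02 after 8 Gy, and Ccl2 in irradiated KPC lies at -3.02.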

How the data were processed

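RNA pools of 4 KPC tumor conditions, and of 8 MC38 and Pan02 conditions, were counted on the nCounter Mouse Immunology Panel. Per the labels and the study's methods, the authors deposited a signal, normalized counts, made in nSolver 2.6: the background of 8 negative controls was deducted and a factor from 6 positive controls applied. No scaling by reference genes is named. The 14 control probes were left out. Net counts were recovered from the steps between low values (100% whole within 0.1 count), and ratios were given exact 95% intervals for counting error. Values were tested as log2(value + 10), which understates the change of low genes, in limma 3.58.1 (R 4.3.3) with irradiation as a term and Benjamini-Hochberg adjustment over the genes considered. The deposited signal is no raw count, so edgeR 4.0.16 on recovered counts was an alternative, beside other scalings, pseudocounts and limits. The paired fit was tested on simulated data. The conditions compared, the genes and the lists were chosen with earlier results of these data known. Named genes were those at 2-fold in a pair or both, those called by limma, the most changed members of each list and genes the study names, together with others chosen after their values were seen (those whose counting intervals excluded 1 in both pairs, Il17a, Cd163, Ccl6, Serping1, Ncam1, Emr1, Fcgr1, Ptpn6, Tgfb2, Tgfb3 and markers). Of the 561 symbols, 545 are current in RefSeq (GRCm38.p6), 14 are older and 2 were not found. Promoter regions are from RefSeq. 1 gene at 2-fold after 8 Gy is counted but not reported by name here.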

Additional observations from a re-analysis of the deposited data

Results flagged for a closer look

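In 3 genes the Sirpα-/- over WT ratios of the 2 KPC pairs pointed in opposite directions, each beyond counting error. The difference between the pairs was not tested, since each pair is 1 sample against 1. Itga6, an integrin chain that binds laminin, measured 341 in WT and 220 in Sirpα-/- hosts without IR but 209 and 420 after 8 Gy, and its log2 ratio was higher by 1.59 after 8 Gy. Cebpb changed likewise, with a difference of 1.26 between its log2 ratios. H2-Aa, a chain of MHC class II, measured 2674 and 3022 without IR and 4663 and 2996 after 8 Gy, a difference of -0.81.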

How the results depend on the processing

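The 4 limma calls that were lower in Sirpα-/- hosts became 0 with the median ratio as scale, with a pseudocount of 30 and without the irradiation term. They also became 0 in a fit of all 12 samples, with edgeR and with a paired t-test on the 2 log2 ratios after adjustment. They became 2 (Ccl2 and Ctsc) where both values had to reach 100. The study's methods name a t-test in general but state no test for these data. Unadjusted, the paired t-test gave 10 lower and 1 higher. Scaled by reference genes, 1 gene was higher (C4a). In the fit of all 12 samples each KPC sample was also left out in turn, which was chosen after seeing the data. The KPC difference then comes from the other pair alone, 1 sample against 1. Without either non-irradiated sample the log2 differences of Ccl2, Ctsc, Ccl5 and Ccl12 were -3.02, -1.92, -1.82 and -1.18. Without either irradiated sample they were -0.34, -0.89, -1.75 and -1.74. The same holds for the comparison with MC38 and Pan02, so no count of genes is given for these fits. The 2 genes at 2-fold lower in both pairs became 1, with 1 higher (C4a), under the median ratio, and 0 where both values had to reach 100. Without IR, the 2 higher and 4 lower genes became 0 and 2 with a pseudocount of 30, 1 and 0 where both values had to reach 100, and 7 and 13 at a limit of 50. After 8 Gy, the 10 higher and 15 lower genes became 17 and 7 under the median ratio and 5 and 9 where both values had to reach 100, and 23 were higher at a limit of 50. Of 14 lists with at least 3 genes considered, 9 had a median below 0 in both pairs, and 5 of 16 under the median ratio. The paired log2 differences of Ccl2, Ctsc, Ccl5 and Ccl12 stayed below 0 under these alternatives. Some smaller differences changed sign. That of C1qb went from -0.19 to 0.02 under the median ratio, and that of Cebpb from -0.41 to 0.09 with edgeR. The cause of these shifts was not tested. Depth limits the non-irradiated pair: 3 net counts, taken as the floor, stood for 11.4 and 19.5 normalized counts in its WT and Sirpα-/- samples. No paired analysis was possible because each condition has 1 sample, beyond the pairing by irradiation used throughout.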
